A study of Musca domestica with 24 samples.

Results

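The house fly gene argos is described here across heads and testes, 1 gene of the 16540 listed. It was chosen by its temperature pattern in these data, a level in testes that was lower at 29 °C than at 18 °C in both strains beside a similar level at both temperatures in heads. Its temperature differences are therefore given as a description without a test. The tests below concern strain and tissue, comparisons of level that the choice did not make, though they draw on the same libraries. The study used Musca domestica of the strains CSrab and IsoCS, which share their background and carry different proto-Y chromosomes, that is, recently formed male-determining chromosomes. From what is known of these strains, CSrab males carry the III-M proto-Y, formed from chromosome III (element A), and IsoCS males carry Y-M. Flies of both strains were raised at 18 °C or 29 °C, and polyA RNA from heads and testes was sequenced in 3 libraries per group, 24 libraries in 8 groups. The labels do not give the age of the flies, the sex of those that gave heads, or how many were pooled in a library. Each strain is a single line, so a difference between strains is a difference between these lines.

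Argos is a secreted protein with an EGF-like domain, known from Drosophila as an antagonist of the EGF receptor. It binds the activating ligand Spitz and keeps it from the receptor, and argos transcription is itself raised by receptor signalling, which makes it part of a feedback loop. In the Drosophila eye it limits how many cells are recruited into the photoreceptor clusters. In the Drosophila testis, germ cells send Spitz to the EGF receptor on the somatic cyst cells that enclose them. These roles come from Drosophila, and the present files give transcript counts of the house fly gene and nothing on its protein.

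Of 25 genes sought for the EGF receptor pathway, among them the ligands Spitz, Keren, Gurken and Vein, the receptor, the inhibitors Sprouty and Kekkon and the kinases of the Ras cascade, 1 was found by symbol, argos itself. Most genes of the tables carry only a LOC identifier, so the pathway around argos was not analysed here. Of 36 genes sought as markers of head, germline, cyst cells, muscle and fat body, 1 was found, the immune gene attacin, with 0.740 to 915.5 CPM (counts per mega-count of the library, on library sizes scaled by edgeR's TMM method) in heads and 0.0935 to 137 CPM in testes. Attacin did not differ by tissue past the threshold (adjusted p 0.410, edgeR) and marks neither here. The yolk protein gene yp3, added after its values were seen, had 101 to 1074 CPM in heads and 10.9 to 97.5 CPM in testes.

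Of 5 genes of neurons, also added after their values were seen, 3 were lower in testis, 1 was higher and 1 did not pass, averaged over strains and temperatures. Such calls were common, with 41.3% of all genes tested called lower in testis and 45.9% called higher. The neuropeptide gene pdf had 4.70 to 20.7 CPM in the 12 head libraries and 0 to 0.177 CPM in the 12 testis libraries, and MdRdl, a GABA receptor subunit, had 1.37 to 3.33 and 0 to 0.295 CPM. The para-like gene was lower in testis by −0.70 ± 0.22 on average on the log2 scale (SE, adjusted p 0.00547, edgeR). It had 72.1 to 326.9 CPM in heads and 48.9 to 189 CPM in testes. By group para-like passed only in CSrab at 29 °C (−1.545, adjusted p 0.00399, edgeR), where 34.5% of genes were called lower. It was −0.81 in CSrab at 18 °C, −0.68 in IsoCS at 29 °C and 0.24 in IsoCS at 18 °C. IR25a, an ionotropic receptor gene, was higher in testis, with 7.68 to 32.8 CPM in heads and 143 to 220 CPM in testes. The acetylcholine receptor gene nAChRbeta3 differed by −0.14 ± 0.09 on average (adjusted p 0.164, edgeR), an average over opposite directions. It was lower in testis in CSrab at 18 °C (−0.85, adjusted p 0.00048) and higher in IsoCS at 29 °C (0.55, adjusted p 0.0129). In those groups 35.8% of genes were called lower and 39% higher. It did not pass in CSrab at 29 °C (−0.41) or IsoCS at 18 °C (0.15). Its strain difference in testis minus head was −0.98 (adjusted p 0.002, edgeR), where 11.2% of genes were called. These genes thus do not mark the head as a set, and pdf and MdRdl, which were close to 0 in testis libraries, were chosen knowing that. No germline or cyst cell marker could be checked, so the cell makeup of the testis samples was not tested.

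Library totals, in mega-counts (M), ran from 15.7 to 35.7 M in head and from 14.9 to 40.0 M in testis. The mean total was higher at 29 °C than at 18 °C, with 27.3 M against 19.9 M in head and 29.9 M against 21.7 M in testis. Replicate 3 of IsoCS testis at 29 °C stood apart from its group, with a first-component score of −14.3 against −84.6 and −87.5 for replicates 1 and 2. Replicate 3 of CSrab testis at 29 °C had 24.5% of its counts in its 10 most abundant genes and the lowest scaling factor, 0.706. Its first-component score, 42.4, was close to the 42.3 of replicate 2. Refits without both of these libraries, named below as those that stand apart, accompany the strain, temperature and tissue results that follow. Replicate 2 of IsoCS testis at 29 °C was kept in those refits. It had the next lowest scaling factor, 0.748, and 16.5% of its counts in its 10 most abundant genes. The series calls the 3 replicates of a group biological and does not say which flies each came from, so p-values measure the spread between these samples.

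The level of argos in heads overlapped across strains and temperatures. In CSrab heads the 3 libraries had 17.0, 32.2 and 25.4 CPM at 18 °C and 24.7, 39.1 and 14.1 CPM at 29 °C. In IsoCS heads they had 21.0, 28.1 and 21.6 CPM at 18 °C and 28.8, 15.3 and 28.3 CPM at 29 °C. All 4 head groups overlapped one another, and CSrab heads at 29 °C held both the highest and the lowest of the 12 values. The group means were 24.9 ± 7.64 CPM (SD, n = 3) in CSrab at 18 °C, 26.0 ± 12.5 in CSrab at 29 °C, 23.6 ± 3.95 in IsoCS at 18 °C and 24.1 ± 7.68 in IsoCS at 29 °C. The 12 head libraries spanned 2.77-fold. With 321 to 992 argos counts per head library, counting error was between 3.18% and 5.58% of the count. The spread among replicates was larger in every head group, with a coefficient of variation of 16.7% to 48.2%.

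Testes held less argos, and every testis library lay below every head library, in a comparison where 41.3% of all genes tested were called lower in testis. In CSrab testes the libraries had 3.77, 4.21 and 3.41 CPM at 18 °C and 1.66, 1.99 and 2.28 CPM at 29 °C. In IsoCS testes they had 5.17, 6.71 and 4.16 CPM at 18 °C and 2.59, 1.71 and 3.15 CPM at 29 °C. Within each strain the 3 libraries from 29 °C were below the 3 from 18 °C, with no overlap. Among the 13271 genes tested in testis, 3.5% were called lower at 29 °C in CSrab and 3.81% in IsoCS by edgeR's quasi-likelihood test at an adjusted p under 0.05. The share of all genes whose libraries separate by temperature without overlap was not counted. Argos was chosen on these temperature differences, so nothing is read from its separation or its place among the genes called. The group means were 3.79 ± 0.399 CPM (SD, n = 3) and 1.98 ± 0.310 CPM in CSrab, and 5.35 ± 1.28 CPM and 2.48 ± 0.723 CPM in IsoCS. A bulk sample cannot tell fewer argos-expressing cells from less argos RNA per cell, which holds for each testis value here.

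**Figure D1:**
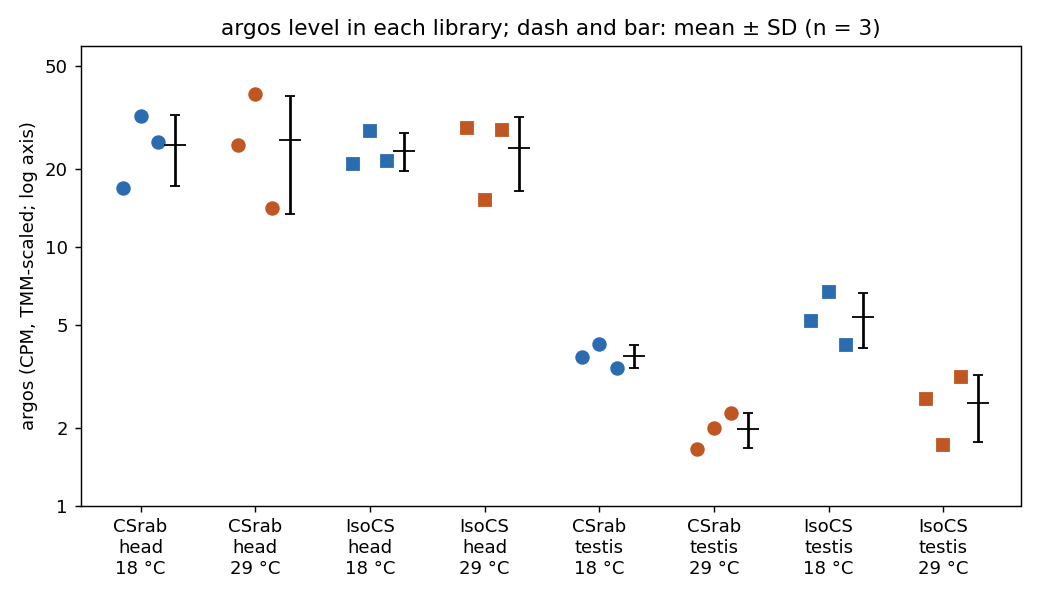
Level of argos in each of the 24 libraries, in CPM on a log axis, by strain, tissue and developmental temperature; points are libraries (circles CSrab, squares IsoCS, blue 18 °C, orange 29 °C), and the dash with its bar is the mean ± SD of 3. Head libraries lie between 14.1 and 39.1 CPM and testis libraries between 1.66 and 6.71 CPM, and in testes the libraries from 29 °C lie below those from 18 °C in both strains.

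Ordered by mean, the groups ran from CSrab heads at 29 °C through CSrab heads at 18 °C and IsoCS heads at 29 °C to IsoCS heads at 18 °C. IsoCS testes at 18 °C followed, then CSrab testes at 18 °C, IsoCS testes at 29 °C and CSrab testes at 29 °C. Neighbours in this order overlapped in their libraries at 5 of the 7 steps. The steps without overlap were that from IsoCS heads at 18 °C down to IsoCS testes at 18 °C, and that from CSrab testes at 18 °C down to IsoCS testes at 29 °C.

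The testis values rest on few counts. Argos had 65, 66 and 64 counts in CSrab testes at 18 °C and 44, 42 and 51 at 29 °C, although all 3 CSrab libraries from 29 °C were deeper than all 3 from 18 °C. In IsoCS testes it had 183, 144 and 116 counts at 18 °C and 88, 32 and 101 at 29 °C. The lowest, 32 counts, has an exact 95% Poisson interval of 21.9 to 45.2 counts, which covers counting error only. Per mega-count without any scaling factor, CSrab testes had 3.21 to 4.42 argos counts at 18 °C and 1.52 to 1.98 at 29 °C. IsoCS testes had 4.42 to 6.99 at 18 °C and 1.28 to 3.13 at 29 °C. The lower values at 29 °C are thus present without scaling, and again do not overlap those from 18 °C.

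**Figure D2:**
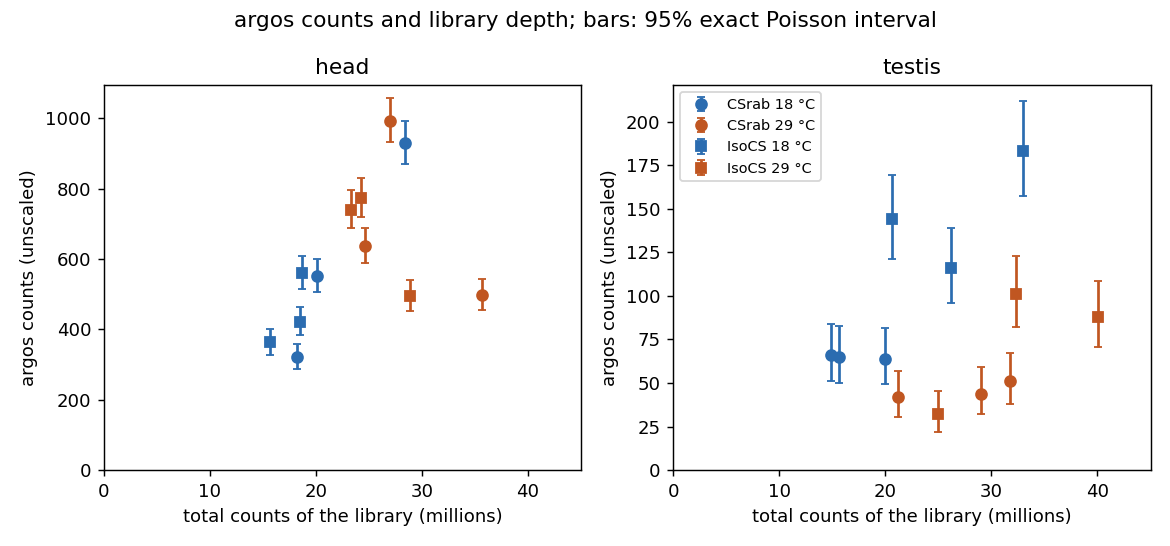
Unscaled argos counts of each library against its total counts in M, heads left and testes right; bars are exact 95% Poisson intervals, circles CSrab, squares IsoCS, blue 18 °C, orange 29 °C. In testes the libraries from 29 °C hold 32 to 101 argos counts and those from 18 °C hold 64 to 183, at totals of 14.9 to 40.0 M counts.

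The temperature differences that led to the choice of argos were of similar size in both strains. In testes the fitted log2 difference of 29 °C over 18 °C was −0.95 ± 0.29 (SE) in CSrab and −1.10 ± 0.28 in IsoCS, which are levels 1.93-fold and 2.15-fold lower at 29 °C. Of all genes, 5.98% had a more negative log2 difference than argos in CSrab testes and 4.54% in IsoCS testes. Without both testis libraries that stand apart, the difference was −1.03 in CSrab and −1.28 in IsoCS. Without replicate 2 of the 29 °C group it was −0.87 in IsoCS. In heads it was 0.08 ± 0.39 in CSrab and −0.05 ± 0.39 in IsoCS, with 95% intervals of −0.79 to 0.95 and −0.92 to 0.82, and 0.283% and 0.697% of the 12347 genes tested in head were called. The CSrab head value turned on single libraries, since it was −0.33 without replicate 2 and 0.38 without replicate 3 of the 29 °C group. In IsoCS heads it was 0.21 without replicate 2 and −0.20 without replicate 1 of the 29 °C group. Averaged over strains, the temperature difference in testis minus that in head was −1.06 ± 0.34 on the log2 scale, and 7.03% of genes were called in this comparison.

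The difference between the strains in their temperature difference was smaller than its standard error. The log2 difference in CSrab minus that in IsoCS was 0.15 ± 0.40 (SE) in testis, with a 95% interval of −0.74 to 1.05, and 0.13 ± 0.55 in head, with an interval of −1.10 to 1.36. In testis 0.249% of genes were called for this interaction. The authors' deposited table lists an adjusted p of 0.969 in testis and 0.999 in head for this interaction. Since argos was picked for lower values in both strains, these figures describe it and show nothing further.

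Whether strain goes with a different argos level was tested in each tissue with edgeR's quasi-likelihood F test, adjusted over all genes by Benjamini-Hochberg. With a single line per strain, the proto-Y cannot be told apart from other differences between the lines. In testes the CSrab level differed from the IsoCS level by an average of −0.40 ± 0.20 on the log2 scale (SE), which did not pass (unadjusted p 0.0716, adjusted p 0.179). The 95% interval ran from −0.85 to 0.04. Among all genes tested, 10.8% were called lower in CSrab testes in this comparison. At 18 °C the difference was −0.48 ± 0.28 (adjusted p 0.313, with 5.15% of genes called lower), with the CSrab library of 4.21 CPM above the IsoCS library of 4.16 CPM and the other libraries separate by strain. Without IsoCS replicate 2 of that group it was −0.28, and without IsoCS replicate 3 it was −0.64. At 29 °C it was −0.33 ± 0.29 (adjusted p 0.524, with 5.58% of genes called lower), and it was −0.12 without replicate 3 and −0.51 without replicate 2 of the IsoCS group. Thinning all libraries to equal depth gave −0.61 (adjusted p 0.263), and none of these refits at 18 °C or 29 °C passed. Without both testis libraries that stand apart the average difference was −0.35 (adjusted p 0.200), with −0.47 at 18 °C and −0.23 at 29 °C.

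In heads the strains were close. The average log2 difference of CSrab over IsoCS was 0.05 ± 0.28 (SE, adjusted p 0.927 by edgeR), with a 95% interval of −0.56 to 0.67. It was −0.01 ± 0.39 at 18 °C and 0.12 ± 0.39 at 29 °C (adjusted p 0.992 and 0.910). In head, 12.2% of genes were called between the strains on average, 3.27% at 18 °C and 4.41% at 29 °C. The sign of the head differences changed with single libraries, so no direction is given. The interval of the average includes a difference as large as the −0.40 found in testes. The strain difference in testis minus that in head was −0.51 ± 0.34, with an interval of −1.21 to 0.20, and did not pass either (adjusted p 0.366, edgeR), where 11.2% of genes were called. It was −0.30 without CSrab head replicate 2 and −0.66 without CSrab head replicate 3 of the 29 °C group (adjusted p 0.646 and 0.185), and −0.46 without both testis libraries that stand apart. Of the 1910 genes of element D tested in testis, the element of argos, 19.7% were called between strains, against 23.4% of all genes.

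**Figure D3:**
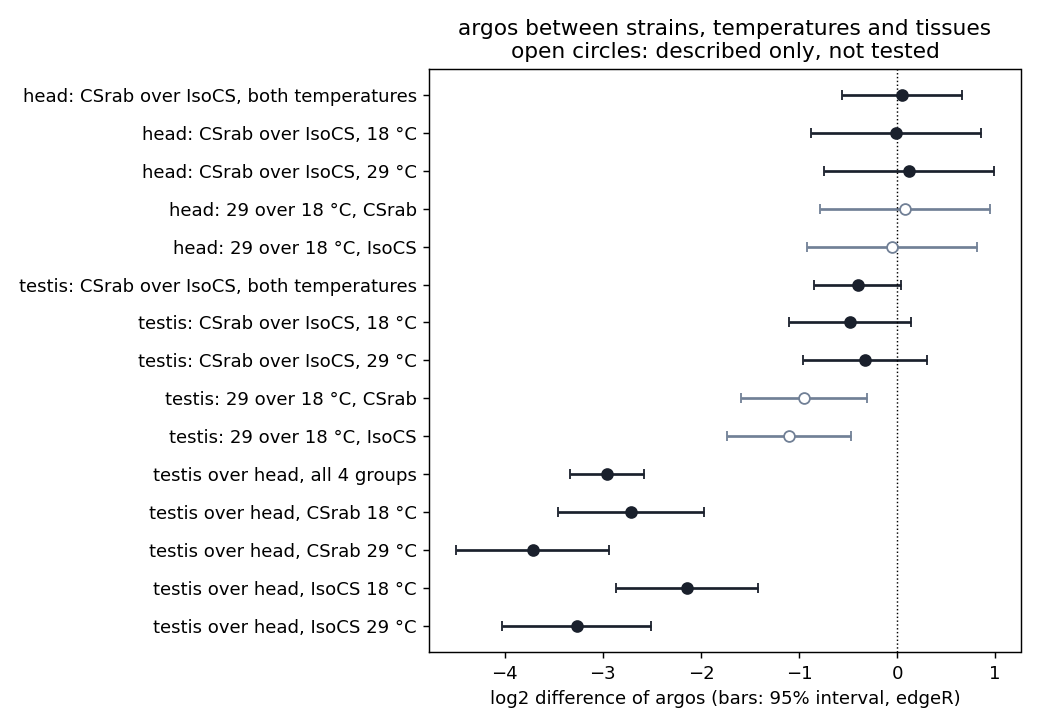
Log2 differences of argos with 95% intervals from edgeR, for strain within tissue, temperature within strain and tissue, and testis over head; filled points were tested and open points are described only. The testis over head differences lie between −3.71 and −2.14, and the intervals of the strain differences all include 0.

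The largest tested difference was between tissues. Argos was 7.78-fold lower in testis than in head on average over the 4 groups of strain and temperature, a log2 difference of −2.96 ± 0.18 (SE, adjusted p 6.82e-12, edgeR's quasi-likelihood test on all 24 libraries). The 95% interval ran from −3.33 to −2.58, and the difference was −3.07 without both testis libraries that stand apart. This average includes the testis and head values by which argos was chosen, so its p-value is not independent of that choice. Such differences were common, with 41.3% of the 14334 genes tested called lower in testis and 45.9% called higher. Of all genes, 11.3% had a more negative difference than argos.

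Within each group the gap was also past the threshold, where 35.8% (CSrab at 18 °C), 31.8% (IsoCS at 18 °C), 34.5% (CSrab at 29 °C) and 33.8% (IsoCS at 29 °C) of genes were called lower in testis. At 18 °C argos was 6.55-fold lower in testis in CSrab (log2 −2.71 ± 0.36, adjusted p 1.42e-06, edgeR) and 4.41-fold lower in IsoCS (log2 −2.14 ± 0.34, adjusted p 1.87e-05). At 29 °C it was 13.1-fold lower in CSrab (log2 −3.71 ± 0.37, adjusted p 4e-08) and 9.63-fold lower in IsoCS (log2 −3.27 ± 0.36, adjusted p 1.7e-07). The wider gap at 29 °C restates the temperature differences above, since the head level was similar at both temperatures. The gaps at 29 °C use the testis values by which argos was chosen, so their p-values are no separate support. Those at 18 °C also draw on values used in that choice. All 3 testis libraries were below all 3 head libraries in each of the 4 groups.

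Replicate scatter of argos was near the trend for its abundance in heads and below it in testes. The biological coefficient of variation estimated by edgeR was 35.1% in heads, against a trend of 32.7% for genes of this abundance, and 27.9% in testes, against a trend of 48.0%. Of all genes, 72.5% in heads and 55.7% in testes had a lower dispersion than argos. Since argos was chosen by its temperature differences in testes, its scatter there is described only. In testes counting error was 7.39% to 17.7% of the count. The observed coefficient of variation was 10.5% and 15.7% in CSrab testes at 18 °C and 29 °C, near the mean counting errors of 12.4% and 14.8%. In IsoCS testes it was 24% and 29.1%, above the mean counting errors of 8.34% and 12.8%.

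Argos lies on element D, on a scaffold that holds 6 genes of the deposited tables. The other 5, LOC101894029, LOC101894205, LOC101894378, LOC101894540 and LOC101894861, have no product name in the tables used here. None of the 5 had a lower mean at 29 °C in the testes of both strains. LOC101894540, the next gene in the RefSeq order, had 2.72 ± 0.639 CPM (SD, n = 3) at 18 °C and 9.55 ± 5.42 CPM at 29 °C in CSrab testes, and 9.84 ± 7.44 and 16.5 ± 9.67 CPM in IsoCS testes. Its means were higher at 29 °C, and neither difference passed (adjusted p 0.105 in CSrab and 0.422 in IsoCS, edgeR). LOC101894861 had 0.568 ± 0.459 and 0.320 ± 0.118 CPM in CSrab testes and 1.24 ± 1.03 and 1.25 ± 1.30 CPM in IsoCS testes at 18 °C and 29 °C (adjusted p 0.655 and 0.985, edgeR).

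Between tissues, 3 of the 5 genes were lower in testis, 1 was higher and 1 did not pass. Of all genes tested, 41.3% were called lower in testis and 45.9% higher, so this count is not particular to the scaffold. LOC101894861 was lower by −5.92 ± 0.37 on the log2 scale (SE, adjusted p 1.32e-11, edgeR), with 16.9 to 80.7 CPM in heads and 0.127 to 2.74 CPM in testes. LOC101894540 was lower by −1.39 ± 0.31 on average (adjusted p 0.000398). By group this passed in CSrab, at −2.87 and −1.48 at 18 °C and 29 °C (adjusted p 0.000777 and 0.0393, edgeR). It did not pass in IsoCS, at −0.56 and −0.67 (adjusted p 0.421 and 0.334). The strain difference in testis minus that in head was −1.56 ± 0.62 for LOC101894540. It did not pass (adjusted p 0.113, edgeR), where 11.2% of genes were called. LOC101894378 was lower by −1.94 ± 0.78 on average (adjusted p 0.0256, edgeR), with medians of 0.179 CPM in heads and 0.0558 CPM in testes, and it passed in none of the 4 groups alone. LOC101894029 was higher in testis (adjusted p 1.09e-05, edgeR), with 0 to 0.591 CPM in heads and 0.622 to 93.1 CPM in testes. LOC101894205 had 76.0 to 165 CPM in heads and 77.2 to 582 CPM in testes (adjusted p 0.106, edgeR).

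In the RefSeq gene table of the assembly Musca_domestica.polishedcontigs.V.1.1, which need not be the build the authors counted on, argos lies within the span of a longer gene, LOC101892759. The deposited tables place LOC101892759 on another scaffold than argos, also on element D. Libraries were made with a kit that keeps strand, and whether the counting used strand is not given in the sources used here. Reads shared by overlapping exons could have been dropped or assigned to either gene, which was not tested.

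LOC101892759 had 31.7, 29.7 and 29.5 CPM in CSrab testes at 18 °C and 14.3, 18.7 and 18.4 CPM at 29 °C. In IsoCS testes it had 17.4, 18.0 and 22.4 CPM at 18 °C and 12.6, 16.2 and 20.7 CPM at 29 °C. Like argos it was lower at 29 °C in CSrab testes without overlap, while its IsoCS groups overlapped through the 20.7 CPM of replicate 3 at 29 °C, the library that stands apart. It was chosen by position and not by its own temperature values, so its temperature effect was tested. Reads shared with argos could tie this test to the choice of argos, which was not tested. The log2 difference in CSrab testes was −0.83 ± 0.19 (SE, adjusted p 0.0315, edgeR), a call lost in 10 of 23 alternatives. These included leaving out any 1 of the 6 CSrab testis libraries or IsoCS testis 18 °C replicate 1 or 2, with values of −0.91 to −0.71. In IsoCS testes it was −0.23 ± 0.19 (adjusted p 0.460). That value was −0.43 without replicate 3 of the 29 °C group (unadjusted p 0.0373) and −0.04 without replicate 1 (unadjusted p 0.839), and passed after adjustment in neither, by edgeR. The difference between the strains was not called (adjusted p 0.496). Without both testis libraries that stand apart CSrab testes differed by −0.85 (adjusted p 0.0240) and IsoCS testes by −0.40 (adjusted p 0.122).

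Between tissues LOC101892759 went the other way from argos. It had 4.99 to 10.9 CPM in heads and 12.6 to 31.7 CPM in testes, without overlap. Its log2 difference of testis over head was 1.40 ± 0.11 (SE, adjusted p 4.01e-10, edgeR), and 1.31 without both testis libraries that stand apart. Such calls were common, with 45.9% of the 14334 genes tested called higher in testis.

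**Figure D4:**
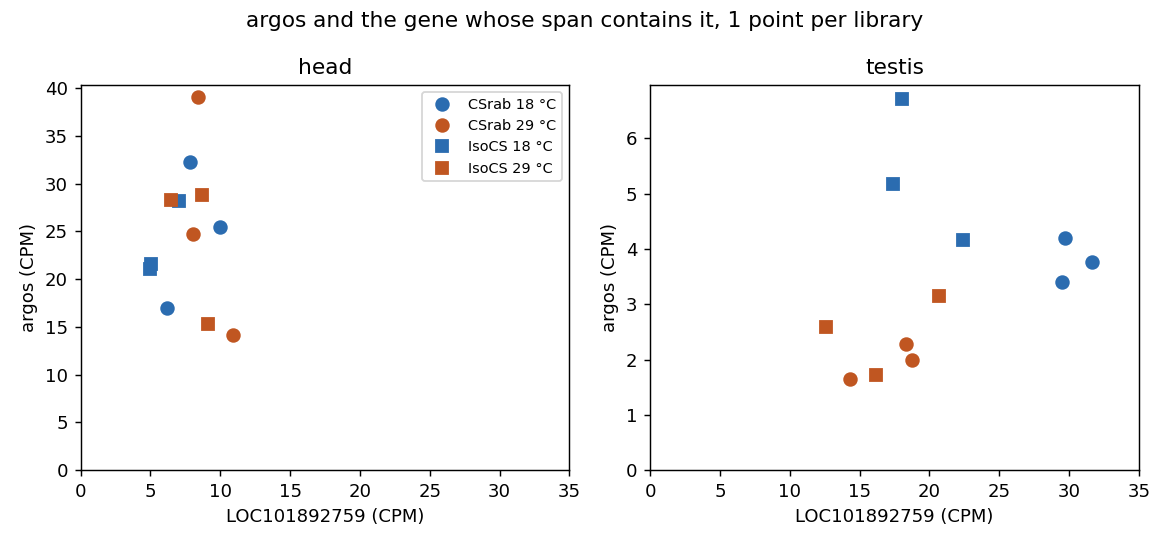
Argos against LOC101892759, in CPM, 1 point per library, heads left and testes right (circles CSrab, squares IsoCS, blue 18 °C, orange 29 °C). The CSrab testis libraries from 18 °C lie apart on the right at 29.5 to 31.7 CPM of LOC101892759, while argos is highest in IsoCS testes at 18 °C, up to 6.71 CPM.

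The 3 genes with the highest Pearson's r with argos in log2 CPM were listed for each set of libraries, as a description. Points of 1 tissue share strain, temperature and depth differences, so r has no p here. Over the 12 testis libraries, among 11914 genes, LOC101899377 (element B), LOC101900568 (element A) and LOC101898172 (element D) had r of 0.929, 0.928 and 0.924. Over the 12 head libraries they were LOC101895374 (element B), LOC101890773 (element E) and LOC101888690 (element E), with r of 0.952, 0.933 and 0.928. Over all 24 libraries, where the tissue difference dominates, LOC101891309, LOC101891998 and LOC101898825 had r of 0.973, 0.971 and 0.969. No gene was on more than 1 of the 3 lists. The places depend on the measure. By Spearman's rho LOC101900568 and LOC101898172 ranked 15.5 and 43 in testes, LOC101890773 and LOC101888690 ranked 8.5 and 19 in heads, and with a pseudocount of 2 LOC101898825 ranked 24 over all libraries. None of these genes has a product name in the tables used here.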

How the data were processed

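For each tissue the authors deposited a table of raw read counts, 1 column per library, per the file headers. The deposited tables also give, per the file headers, an adjusted p-value per gene for the interaction of strain and temperature. HISAT2, SAMtools, HTSeq and DESeq2 are named in the submitters' processing notes. Their settings, the genome build and the annotation are not given in the sources used here. TRIzol extraction and a stranded mRNA library kit are stated in the labels' protocols. All 24 count columns were mapped to libraries by name.

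The 12 libraries of a tissue were fitted as 4 groups with edgeR 4.0.16 under R 4.3.3 (filterByExpr with minimum count 10 and minimum total 15, TMM, quasi-likelihood F test, Benjamini-Hochberg adjustment, threshold 0.05). All 24 libraries were fitted together for tissue. CPM use the joint TMM sizes. Standard errors are the log2 difference over the square root of F, and 95% intervals use the t distribution with the degrees of freedom of that test. Fits were tested on simulated data. Named genes were argos, its neighbours by position and the 3 most correlated genes per set of libraries (log2 of CPM plus 0.5, mean of at least 1 CPM), besides the other genes of the argos scaffold, yp3 and 5 neuronal genes (pdf, MdRdl, para-like, IR25a, nAChRbeta3), added later. The gene and the lists were chosen with earlier results of these data known.

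Same-numbered libraries deviated together (every r over 0.1) in 3 of 28 pairs of groups, between temperatures in CSrab heads, CSrab testes and IsoCS testes, and the labels do not say what a number means. The alternatives were DESeq2 1.42.0, other scalings and filters, replicate blocks, fits of only the groups compared and each library left out. Thinning, removal of the 10 most abundant genes, removal of 2 testis libraries and a block within strain were chosen after seeing the data.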

Additional observations from a re-analysis of the deposited data

Results flagged for a closer look

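The temperature difference of LOC101892759, the gene whose span holds argos in the RefSeq table, differed between tissues by a test of the difference itself. In testis minus head it was −0.87 ± 0.22 (SE, adjusted p 0.0216, edgeR's quasi-likelihood test), with log2 differences of −0.83 and −0.23 in CSrab and IsoCS testes and 0.20 and 0.41 in CSrab and IsoCS heads. In this comparison 7.03% of genes were called. The call was lost in 7 of 34 alternatives. These were a replicate block shared by head and testis (adjusted p 0.0842) and leaving out CSrab head 18 °C replicate 2, IsoCS head 18 °C replicate 1 or 3, CSrab testis 18 °C replicate 3, CSrab testis 29 °C replicate 1 or IsoCS testis 29 °C replicate 1. Over all 34 alternatives the adjusted p ran from 0.00619 to 0.0842. Whether reads shared with argos bear on this was not tested. Without both testis libraries that stand apart the difference was −1.03 (adjusted p 0.00724). No test for a single outlying argos value was run, since each group holds 3 libraries.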

How the results depend on the processing

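The 12 tested differences of argos were refitted 335 times in all, 20 to 35 times each, mostly with 1 library left out. In none of these refits did a call appear or disappear. In 9 of them a head strain difference changed sign. With upper-quartile scaling it was 0.020 at 18 °C. Without 1 library it ran from −0.14 to 0.20 on average (from no CSrab 29 °C replicate 2 to no CSrab 29 °C replicate 3), from −0.24 to 0.19 at 18 °C and from −0.28 to 0.41 at 29 °C. The adjusted p of the average testis strain difference ran from 0.0865 to 0.363. The tissue difference ran from −3.22 to −2.92, and from −3.06 to −2.89 without 1 library. Upper-quartile scaling shifted the median tissue difference of all genes by −0.26 on the log2 scale, and relative to that shift argos stayed at its main value. Of 167 refits of the descriptive temperature values, 166 moved by less than 1 SD of replicates on the log2 scale. The exception was the strain by temperature interaction in testis, −0.12 after thinning to equal depth. That SD was 0.51 in head, 0.27 in testis and 0.41 over all libraries. The head SD exceeds each head temperature value, so this measure says little there. The head temperature difference changed sign in 2 refits in CSrab and 3 in IsoCS. The interaction changed sign in 4 refits in head and 3 in testis, while the testis temperature differences kept their sign. Without 1 library, the testis temperature difference ran from −1.03 to −0.83 in CSrab and from −1.31 to −0.87 in IsoCS. A replicate block gave −0.41 for the average testis strain difference (adjusted p 0.237), 0.0014 in head, and, shared by head and testis, −2.92 for tissue, and it changed no call of argos. With 32 to 183 counts per testis library, a strain difference the size of that seen did not pass here.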
